A study of Mus musculus with 20 samples.

Results

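The Wnt ligands, their receptors and co-receptors, the R-spondin branch, the secreted antagonists and a short nuclear arm were followed in mouse temporomandibular joint (TMJ) tissue as 56 genes out of 54532 in the count table. The members were taken by name under a rule that used no measured value, though it was proposed with earlier results of these data known. They comprised 19 Wnt ligands, 10 frizzled receptors, 5 co-receptors, 7 genes of the R-spondin branch, 11 secreted antagonists and 4 genes of the nuclear arm. All 56 were present in the table, 47 had enough counts to be tested, and the other 9 were too low. All mice carried the aggrecan promoter-driven, tamoxifen-inducible Acan-Cre together with the floxed *Loxl2* alleles (Acan-Cre;*Loxl2* fl/fl), and were 6 months old at the first injection. The 8 Control mice received vehicle and the 12 LOXL2_KO mice received tamoxifen at 75 mg/kg for 5 daily injections and then monthly, with tissue taken after 4 months, so that drug and deletion were not separated. Each group held males and females in equal number per the study's methods, and the deposited labels did not say which library was which. Cre in this model acts in aggrecan-expressing cells, whereas the RNA came from whole TMJ condylar heads with some subchondral bone, and the comparison asked how these genes differed between the groups in that mixed tissue.

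Wnt proteins are secreted lipid-modified ligands that bind frizzled receptors. With the co-receptors LRP5 and LRP6 they protect β-catenin from destruction, and β-catenin then enters the nucleus and acts with TCF and LEF factors on target genes, whereas ligands such as WNT5A can signal through ROR receptors without β-catenin. SFRP proteins, WIF1 and DKK proteins such as DKK1 block ligands or co-receptors, and NOTUM removes the lipid from the ligand. R-spondins acting through LGR receptors slow the removal of frizzled receptors from the membrane. In joints and bone the pathway is known for driving osteoblast formation and for its part in keeping the cartilage phenotype in balance.

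The libraries held 11153820 to 27045668 counts, and a count of 3 corresponded to 0.0964 to 0.246 CPM (counts relative to the library total, scaled by the trimmed mean of M values). Values after ± are SDs over 8 Control or 12 LOXL2_KO libraries. *Loxl2* did not fall with the knockout label, with 64.5 ± 30.9 CPM (n = 8) in Control and 101 ± 26.9 CPM (n = 12) in LOXL2_KO, which gave 0.64 on the log2 scale (SE 0.28, adjusted p from edgeR 0.101, exact two-sided permutation p = 0.0271 over 125970 assignments). The counts cover the whole gene and cannot show a deleted exon, so the groups are named here by their labels. By immunohistochemistry the study reported less LOXL2 protein in the knockout mice, which these RNA counts do not measure. Skeletal muscle genes were abundant in every library, with 36176 to 162765 CPM summed over 10 genes. Control replicate 8 had the highest muscle sum and a summed level of 111 CPM for 12 chondrocyte genes, against 1595 to 3256 CPM in the other Control libraries and 1980 to 5375 CPM in LOXL2_KO. Under the knockout label 12 of 12 osteoclast genes were called higher (216 to 1248 CPM summed in Control, 648 to 6283 in LOXL2_KO), as were 6 of 10 osteoblast and osteocyte genes (1318 to 12358 and 4065 to 39235 CPM), with no gene of either list at 0 throughout. All 5 macrophage genes, 4 of 5 mast cell genes and 3 of 6 fibroblast and tendon genes were also called higher, and 3 of 10 skeletal muscle genes lower. Of 9 chondrocyte genes tested, 2 were called higher, and 6 LOXL2_KO libraries had sums above every Control library. Over all genes tested, 12% were called higher and 11% lower. Salivary gland genes, with 1 of 2 tested called higher, summed to 3291 CPM in LOXL2_KO replicate 9 and to 28.7 to 103 CPM elsewhere. No adipocyte, endothelial or Schwann cell gene was called. *Fzd4* and *Fzd7* were highest in the library with the highest muscle sum, and the part of these lists in the members' values was not tested beyond the bone lists. In such bulk tissue, more cells of a type and more RNA per cell cannot be told apart. Fibroblast and tendon genes were highest in LOXL2_KO replicates 4, 5 and 7, at 1001 to 1527 CPM summed, against 591 to 876 CPM in the other 9 libraries of that label.

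Of the 47 members tested, 8 passed an adjusted p of 0.05 in edgeR's quasi-likelihood test and are called here (17.0%), which was below the 23% called among all 15984 genes tested. In the libraries labelled knockout, *Fzd8*, *Ror2*, *Lrp4*, *Sfrp1* and *Tcf7* were higher (10.6% of members, against 12% of all genes) and *Fzd4*, *Fzd7* and *Sfrp2* were lower (6.38%, against 11%). The calls fell in the receptor, co-receptor, antagonist and nuclear groups, and 0 of 11 tested ligands and 0 of 7 genes of the R-spondin branch were called, with 2 and 1 of them at an unadjusted p under 0.05. The median log2 fold change of the members was 0.03, against -0.02 over all genes, with 24 members above 0 and 23 below. For none of the members were the groups fully apart, a state found in 0.3% of all genes.

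**Figure D1:**
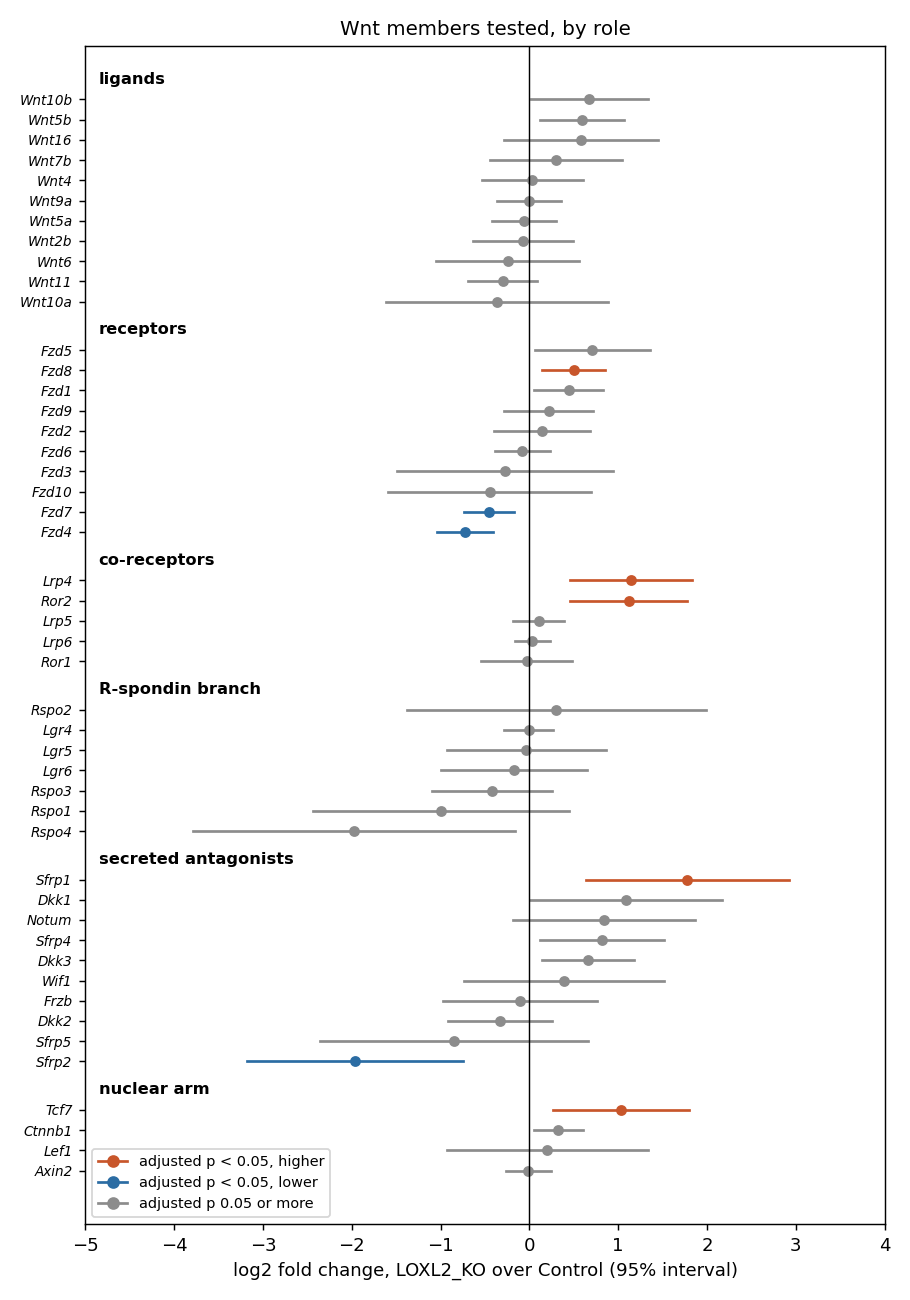
Log2 fold change of each tested member (x axis, LOXL2_KO over Control, log2 scale) with its 95% interval, grouped by role and ordered by size, with called members in colour and the others in grey. The 8 coloured members lie among the receptors, co-receptors, antagonists and nuclear arm, and no ligand or R-spondin branch gene is coloured.

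Of the 10 frizzled receptors, 1 was called higher and 2 lower, against 23% of all genes called in either direction. *Fzd4*, a receptor for Wnt ligands and for Norrin, and *Fzd7*, a broadly expressed Wnt receptor, were lower in the libraries labelled knockout, and *Fzd8*, a high-affinity Wnt receptor, was higher. *Fzd4* (chromosome 7, 89404355 to 89413134, GRCm38) ranged from 87.2 CPM through a median of 104 to 185 CPM in Control and from 43.4 through 64.9 to 94.9 CPM in LOXL2_KO. All 12 libraries labelled knockout lay below the Control median and 10 of them below the lowest Control library. The log2 fold change was -0.72 (SE 0.15, 95% interval -1.04 to -0.41, edgeR adjusted p = 0.00313), the smallest p of any member. It was called in each of 20 fits that left out 1 library, and Control replicate 8, which held the highest value, brought it to -0.57 (adjusted p = 0.00797) when left out. *Fzd7* (chromosome 1, 59482424 to 59486955) ranged from 46.9 through 67.9 to 108 CPM in Control and from 39.2 through 47.2 to 68.7 CPM in LOXL2_KO. Here 11 of 12 libraries labelled knockout were below the Control median and 6 were below the lowest Control library, and Control replicate 8 held the highest value. Its log2 fold change was -0.45 (SE 0.13, adjusted p = 0.019), and without Control replicate 8 it was -0.32 and no longer called (adjusted p = 0.0665). With library totals as the only scaling it was -0.30 (adjusted p = 0.0692).

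*Fzd8* (chromosome 18, 9212163 to 9218136) ranged from 7.35 through 17.6 to 22.3 CPM in Control and from 13.8 through 24.4 to 28.1 CPM in LOXL2_KO. Control replicates 6 and 8 were the lowest Control libraries and LOXL2_KO replicate 5 the lowest of its group. The log2 fold change was 0.50 (SE 0.17, adjusted p = 0.0424), and it fell short of the threshold in 11 of 20 fits that left out 1 library (Control replicates 1, 3, 6 or 8, LOXL2_KO replicates 2, 4, 6, 7, 8, 9 or 11), with values of 0.40 to 0.58 over the 20 fits. *Fzd8* was also not called without the filter on low counts or without Control replicates 6 and 8 together. Nor was it called in the 16 libraries with shared replicate numbers, with or without a block on that number. *Fzd1*, which like *Fzd7* is a receptor for canonical Wnt ligands, had 27.3 ± 11 CPM in Control and 37.0 ± 6.34 CPM in LOXL2_KO, with a log2 fold change of 0.44 (SE 0.19, adjusted p = 0.0939). *Fzd5* had a log2 fold change of 0.71 (SE 0.31, adjusted p = 0.101). *Fzd5*, *Wnt5a*, *Wnt11*, *Rspo2*, *Sfrp4* and *Lef1* are given with values though outside the rule for naming genes, chosen after their values were seen. The remaining 5 frizzled genes, *Fzd2*, *Fzd3*, *Fzd6*, *Fzd9* and *Fzd10*, were not called.

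**Figure D2:**
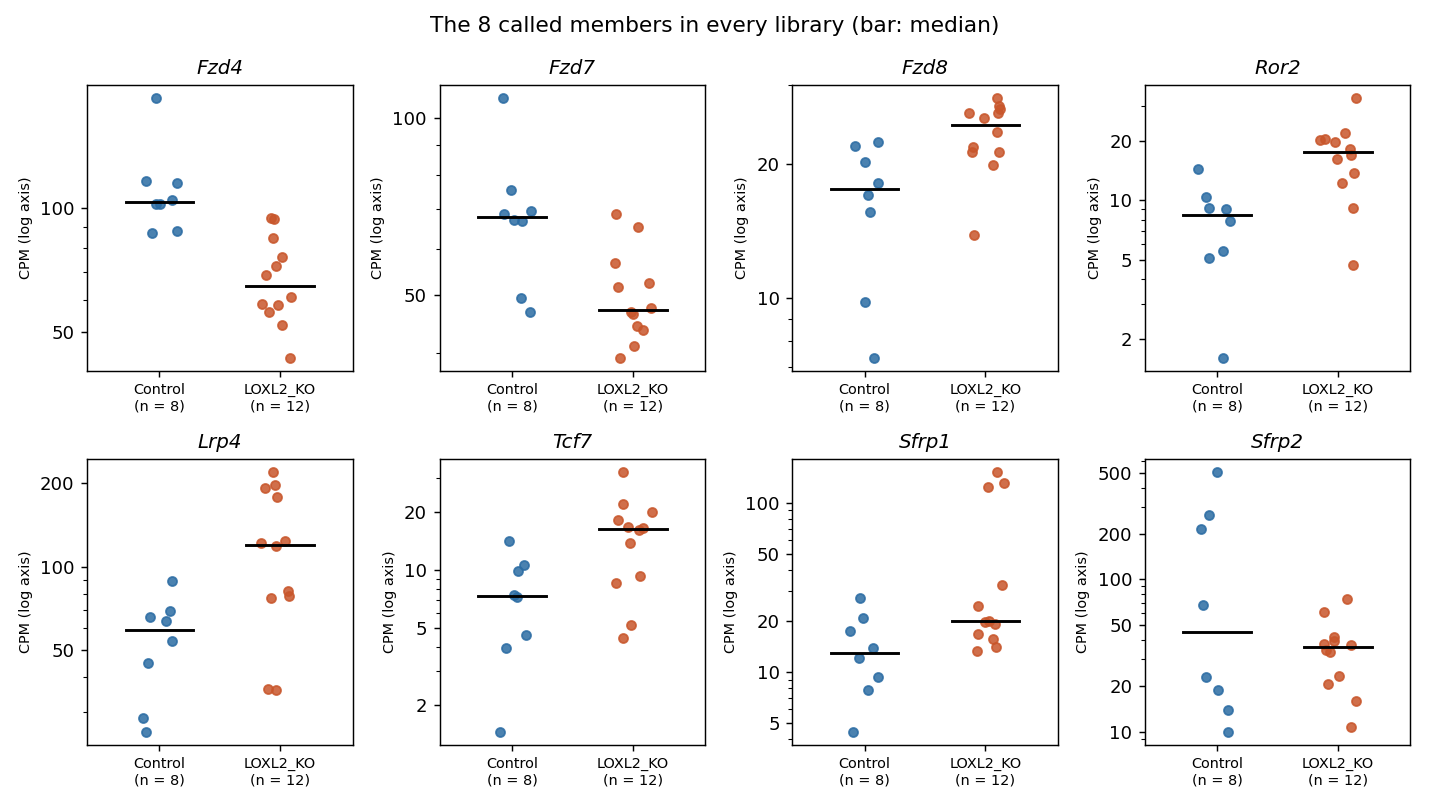
CPM of the 8 called members in each library (y axis, log scale), with Control (n = 8) and LOXL2_KO (n = 12) side by side and the median as a bar. The groups overlap in all 8 panels, *Sfrp1* has 3 LOXL2_KO libraries at 124 to 152 CPM, and *Sfrp2* has 3 Control libraries at 215 to 509 CPM.

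Per exon length, *Fzd4* and *Fzd7* were the most abundant frizzled genes in Control, at 16.8 and 15.2 RPKM (CPM divided by the kilobases covered by a gene's exons), followed by *Fzd1* at 6.49. In LOXL2_KO the levels of these 3 were closer together, at 10.2, 11.1 and 8.83 RPKM. *Fzd4* took a median share of 28.3% of all frizzled RPKM in Control (25.4 to 44.3%) and 18.9% in LOXL2_KO (14.9 to 28.4%), and was the highest frizzled gene in 7 of 8 Control and 3 of 12 LOXL2_KO libraries. *Fzd7* was the highest in 1 and 7 libraries. The share of *Fzd1* had a median of 12.2% in Control and 18.7% in LOXL2_KO. The sum over the 10 frizzled genes had a median of 53.7 RPKM (42.0 to 64.1) in Control and 48.1 RPKM (43.2 to 58.2) in LOXL2_KO. The log2 ratio of *Fzd4* plus *Fzd7* to *Fzd1* plus *Fzd8* had a median of 1.69 (1.05 to 3.68) in Control and 0.65 (0.30 to 1.59) in LOXL2_KO. This ratio sets genes with a negative log2 fold change over genes with a positive one, so its fall follows from that choice of genes. These shares and ratios are descriptions and were not tested, and *Fzd1*, which enters them, was not called.

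**Figure D3:**
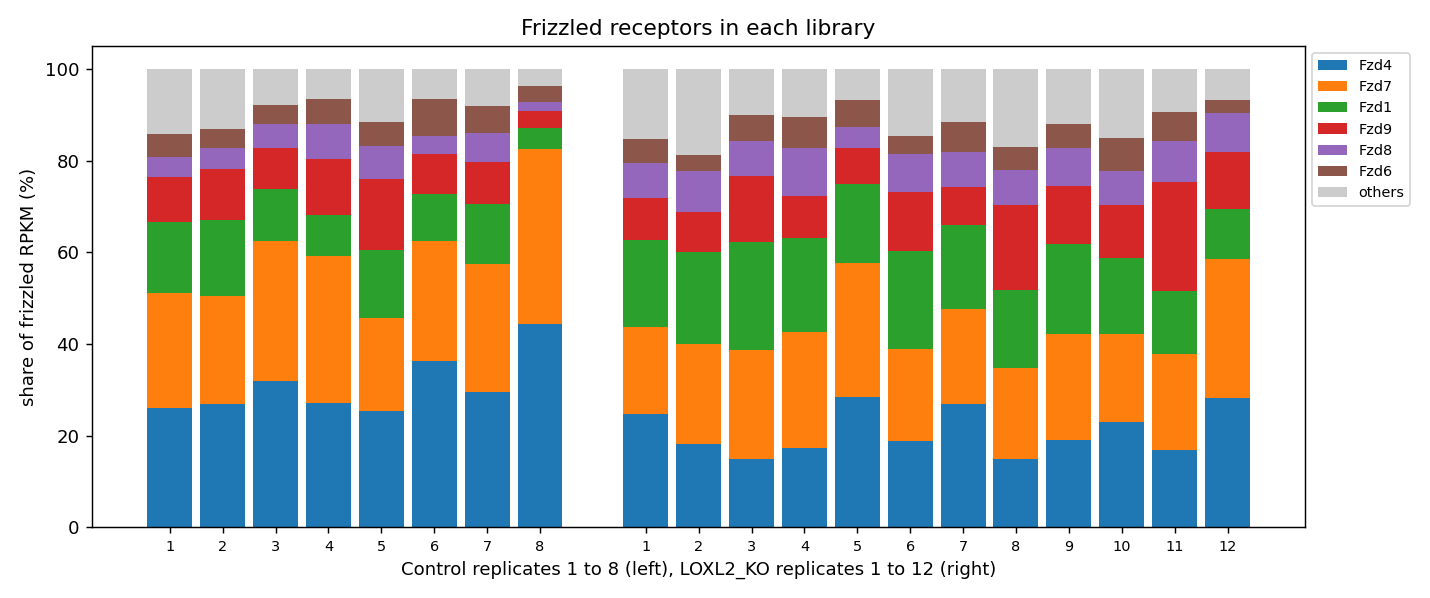
Share of each frizzled gene in the summed frizzled RPKM (y axis, %) of every Control (left) and LOXL2_KO (right) library, with the other 4 genes of the family drawn together as others. *Fzd4* makes up 25.4 to 44.3% in Control and 14.9 to 28.4% in LOXL2_KO.

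The sequences just before the start sites of *Fzd4*, *Fzd7*, *Ror2* and *Sfrp2* are shown, as the called members with the receptor and antagonist changes for which a RefSeq promoter window could be printed. The sequences are from RefSeq on GRCm38.p6, on the strand of the gene, and end just before the RefSeq start site, except that of *Fzd4*, which was shortened to end before the GENCODE start of the gene. For *Fzd7* the RefSeq start lies upstream of the GENCODE start given above. Capitals mark the core letters CTTTG that TCF and LEF factors read, on either strand (CAAAG on the other). The *Fzd4* stretch is chr7:89404116-89404354, plus strand, which an opposite-strand transcript of *Tmem135* overlaps. The *Fzd7* stretch is chr1:59481897-59482146, plus strand, the *Ror2* stretch chr13:53286125-53286374, minus strand, and the *Sfrp2* stretch chr3:83766071-83766320, plus strand.
*Fzd4*: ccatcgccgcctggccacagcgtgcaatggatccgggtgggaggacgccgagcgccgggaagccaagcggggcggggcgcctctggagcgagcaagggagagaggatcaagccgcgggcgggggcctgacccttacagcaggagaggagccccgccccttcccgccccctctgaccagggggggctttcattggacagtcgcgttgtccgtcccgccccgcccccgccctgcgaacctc
*Fzd7*: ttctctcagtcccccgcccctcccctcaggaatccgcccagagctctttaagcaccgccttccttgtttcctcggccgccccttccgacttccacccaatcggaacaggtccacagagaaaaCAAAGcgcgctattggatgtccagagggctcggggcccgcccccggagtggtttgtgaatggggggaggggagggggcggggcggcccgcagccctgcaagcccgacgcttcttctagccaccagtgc
*Ror2*: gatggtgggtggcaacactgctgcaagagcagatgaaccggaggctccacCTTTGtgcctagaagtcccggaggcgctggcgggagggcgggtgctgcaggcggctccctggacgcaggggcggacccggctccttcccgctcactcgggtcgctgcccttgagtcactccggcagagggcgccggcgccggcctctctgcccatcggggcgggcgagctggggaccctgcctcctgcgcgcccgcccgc
*Sfrp2*: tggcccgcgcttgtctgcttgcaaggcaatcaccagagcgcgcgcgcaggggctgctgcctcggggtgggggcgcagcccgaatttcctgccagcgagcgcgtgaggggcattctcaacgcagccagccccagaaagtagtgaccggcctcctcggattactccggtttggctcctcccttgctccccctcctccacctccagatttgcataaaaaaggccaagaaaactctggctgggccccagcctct
The core stood once before *Fzd7* and once before *Ror2*, and nowhere in these windows before *Fzd4* or *Sfrp2*. Among 37 members with a RefSeq entry, 16 (43.2%) had it within 250 bases before a start site, against 52.2% of 27025 genes, so these letters are common and did not set the members apart. The longer form CTTTGAT occurred for *Wnt5b* and *Wnt11*, 5.41% of the members with an entry, and for 3.72% of genes. These matches describe letters in a window and not binding.

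Among the co-receptors, *Ror2* and *Lrp4* were higher in the libraries labelled knockout, and *Lrp5*, *Lrp6* and *Ror1* were not called. *Ror2*, a receptor tyrosine kinase for WNT5A needed in cartilage and bone growth, ranged from 1.61 through 8.45 to 14.3 CPM in Control and from 4.70 through 17.5 to 32.8 CPM in LOXL2_KO (chromosome 13, 53109312 to 53286124). In 8 of 12 libraries labelled knockout it exceeded the highest Control library, and replicates 5, 7, 10 and 12 lay within the Control range. The log2 fold change was 1.12 (SE 0.32, 95% interval 0.46 to 1.78, adjusted p = 0.0158). *Lrp4*, which binds sclerostin and DKK1 and restrains Wnt signaling in bone, ranged from 25.4 through 59.1 to 89.2 CPM in Control and from 35.8 through 120 to 221 CPM in LOXL2_KO (chromosome 2, 91457511 to 91513779). LOXL2_KO replicates 4 and 5 were the lowest of their group, and 7 of 12 libraries were above every Control library. Its log2 fold change was 1.14 (SE 0.33, 95% interval 0.46 to 1.83, adjusted p = 0.0172). Both were called in all 20 fits that left out 1 library, and neither without Control replicates 6 and 8 together, which held the lowest 2 Control values of each (0.86, adjusted p = 0.059, and 0.91, adjusted p = 0.0893).

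The canonical co-receptors *Lrp5* and *Lrp6* differed by less than the spread between libraries. *Lrp6* had 63.9 ± 7.41 CPM (n = 8) and 65.5 ± 10.1 CPM (n = 12), a log2 fold change of 0.03 with a 95% interval of -0.16 to 0.23. *Lrp5* had 72.8 ± 17.1 CPM and 78.2 ± 16.5 CPM, a log2 fold change of 0.10 (-0.18 to 0.39). Per exon length the order in Control was *Lrp5* at 7.48, *Lrp4* at 5.25, *Lrp6* at 4.67 and *Ror2* at 1.86 RPKM, and in LOXL2_KO *Lrp4* stood first at 11.6 RPKM.

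*Ror2*, *Lrp4*, *Fzd8* and *Tcf7* were called higher under the same label as genes of the osteoclast list and of the osteoblast and osteocyte list. Their relation to these lists was examined only by covariate fits. With the osteoclast list score as covariate, the log2 fold changes were 0.14 for *Ror2*, -0.22 for *Lrp4*, 0.19 for *Fzd8* and -0.30 for *Tcf7*, and with the osteoblast and osteocyte score 0.48, 0.00, 0.15 and -0.02, none of them called. The same covariates left *Fzd4* at -0.40 and -0.45 and *Fzd7* at -0.03 and -0.22, also not called, and no gene in the whole table was called by edgeR with the osteoclast score, where 1251 had an unadjusted p under 0.05. As the scores differ between the groups, the share of each difference that goes with these cell types and with the label cannot be told apart.

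Of the 11 ligands tested, none passed the edgeR threshold as reported. Over all libraries *Wnt10b*, *Wnt4* and *Wnt5b* were the most abundant per exon length. *Wnt10b*, known for promoting osteoblast over adipocyte fate, ranged from 6.98 through 26.7 to 29.6 CPM in Control and from 10.2 through 37.6 to 55.1 CPM in LOXL2_KO. In 8 of 12 libraries labelled knockout it was above every Control library, whereas replicates 4, 5 and 7 were at or below 16.8 CPM. On the log2 scale the difference was 0.68 (SE 0.32, adjusted p = 0.124). *Wnt5b*, expressed in prehypertrophic cartilage, ranged from 5.74 through 13.4 to 20.8 CPM and from 9.23 through 19.0 to 28.8 CPM, with a log2 fold change of 0.59 (SE 0.23, adjusted p = 0.0659). *Wnt5b* was called by the Wald test of DESeq2 (adjusted p = 0.0474) and in 3 of 20 edgeR fits that left out 1 library (Control replicate 7, LOXL2_KO replicates 5 or 12). *Wnt4* had 34.1 ± 19.8 CPM (n = 8) and 34.8 ± 13.4 CPM (n = 12), and Control replicate 8 was its highest library at 77.6 CPM. *Wnt5a*, the ligand best known for ROR2, had 13.5 ± 4.20 CPM and 12.9 ± 3.14 CPM, a log2 fold change of -0.06 (95% interval -0.42 to 0.30), while its receptor rose.

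*Wnt11*, a ligand of the β-catenin-independent arm, had a log2 fold change of -0.30 (SE 0.19, adjusted p = 0.246). In 8 of 12 libraries labelled knockout it was below the lowest Control library, at 13.2 CPM or less, and in replicates 4, 5, 7 and 12 it was at 20.2 to 21.8 CPM. A fit without replicates 4, 5 and 7 was chosen after the values were seen, because of their fibroblast and tendon sums. In it *Wnt11* was called at -0.55 (adjusted p = 0.0218), *Wnt5b* at 0.77 (adjusted p = 0.0168) and *Wnt10b* at 0.93 (adjusted p = 0.0161). Within their group those replicates held the lowest *Wnt10b* and near-highest *Wnt11* values, so leaving them out enlarges both differences by construction. The same holds for *Wnt5b*, which they held at 9.23 to 13.5 CPM, against a median of 21.5 CPM in the other 9 LOXL2_KO libraries. The adjusted p-values of this fit are descriptive only. The summed ligand level had a median of 34.6 RPKM (23.8 to 38.6) in Control and 39.3 RPKM (27.6 to 51.3) in LOXL2_KO. *Wnt4* was the highest ligand in 5 of 8 Control and 2 of 12 LOXL2_KO libraries, *Wnt10b* in 3 and 7, and *Wnt9a* in 0 and 3.

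The 8 ligands too low to test were *Wnt1*, *Wnt2*, *Wnt3*, *Wnt3a*, *Wnt7a*, *Wnt8a*, *Wnt8b* and *Wnt9b*. *Wnt7a* had 73, 33 and 8 counts in Control replicates 1, 2 and 6 and at most 5 counts in any library labelled knockout. *Wnt3a* had 25 and 8 counts in Control replicates 1 and 2 and at most 1 count in LOXL2_KO. *Wnt1* had 0 to 18 counts in Control and 0 to 57 in LOXL2_KO, with the highest in replicate 3. *Dkk4*, the remaining member that was not tested, had no count in any library, which allows up to 0.0964 to 0.246 CPM for counting error alone. *Wnt1* exceeded 3 counts in 12 of 20 libraries, and each of the other 8 did so in 0 to 7 libraries, so no fold is given.

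**Figure D4:**
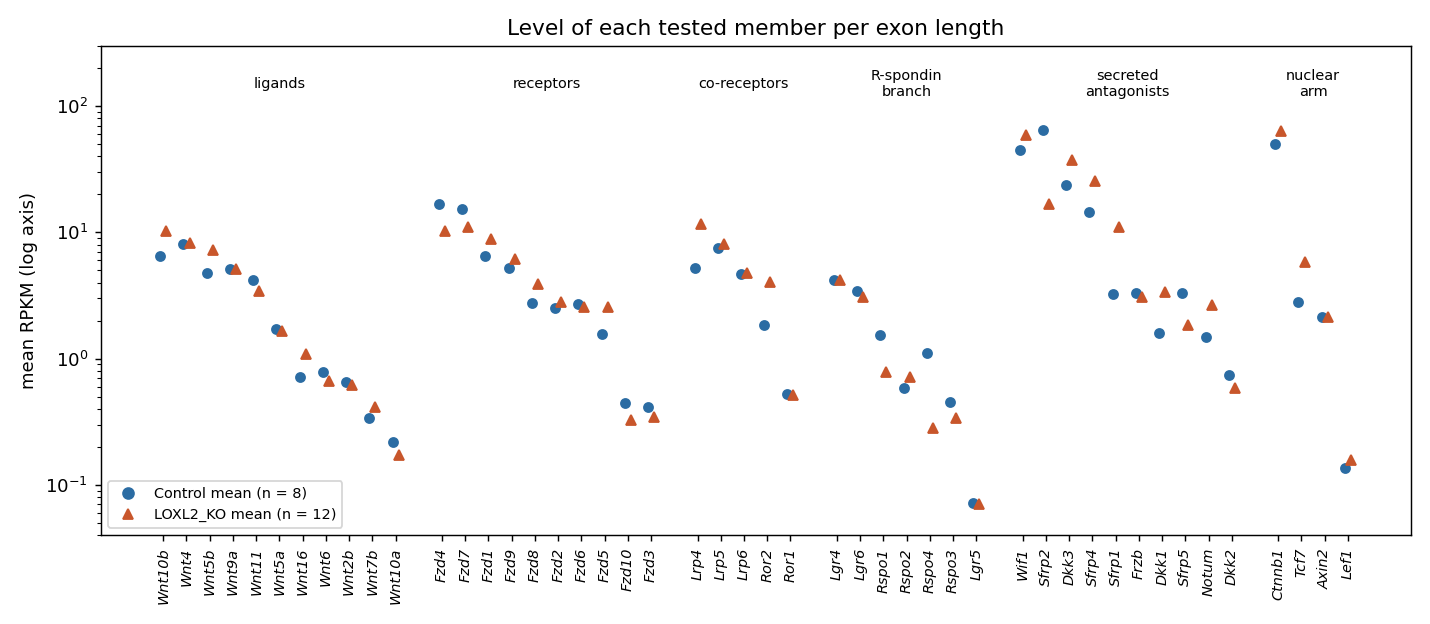
Mean RPKM of each tested member (y axis, log scale) in Control (circles, n = 8) and LOXL2_KO (triangles, n = 12), grouped by role and ordered by mean level. *Ctnnb1*, *Wif1*, *Sfrp2* and *Dkk3* have the highest means over all libraries and *Lgr5*, *Lef1* and *Wnt10a* the least.

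In the R-spondin branch, 0 of 7 genes were called and 6 of 7 log2 fold changes were below 0. *Lgr4*, the most abundant R-spondin receptor here, had 24.8 ± 4.15 CPM (n = 8) and 24.7 ± 5.58 CPM (n = 12), a log2 fold change of -0.01 (95% interval -0.29 to 0.27). *Lgr6* had 23.5 ± 12.9 CPM and 20.9 ± 11.9 CPM, a log2 fold change of -0.17 (SE 0.40). The ligands of the branch were low and uneven between libraries. *Rspo4* ranged from 0 through 1.11 to 9.48 CPM in Control and from 0 through 0.287 to 2.27 CPM in LOXL2_KO, with a log2 fold change of -1.98 (SE 0.87, adjusted p = 0.105), and its Control values of 5.74, 9.48 and 3.30 CPM in replicates 1, 2 and 7 exceeded those of all other libraries. *Rspo1* was highest in the same 3 Control libraries, at 6.68, 7.95 and 4.01 CPM, with a log2 fold change of -0.99 (SE 0.69, adjusted p = 0.310). *Rspo2*, which is known for its role in limb growth and in bone, stood at 12.1, 5.18 and 16.9 CPM in LOXL2_KO replicates 4, 5 and 7 and at 15.6 CPM in Control replicate 6, and at no more than 2.74 CPM elsewhere.

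The secreted antagonists held the largest fold changes among the called members. *Sfrp1* rose and *Sfrp2* fell in the libraries labelled knockout. Both are secreted frizzled-related proteins that bind Wnt ligands through a domain like that of the receptors. *Sfrp1* (chromosome 8, 23411502 to 23449632) ranged from 4.44 through 12.9 to 27.4 CPM in Control and from 13.3 through 19.9 to 152 CPM in LOXL2_KO. All 12 libraries labelled knockout were above the Control median, but 8 of them lay within the Control range, and replicates 4, 5 and 7 stood apart at 124, 130 and 152 CPM. On the log2 scale the difference was 1.78 (SE 0.55, 95% interval 0.63 to 2.92, adjusted p = 0.0245). Without those 3 libraries, which hold both the highest *Sfrp1* values and the highest fibroblast and tendon sums, it was 0.46 and not called (adjusted p = 0.240), and without Control replicate 8 it was 1.66 (adjusted p = 0.0517). With the osteoblast and osteocyte score as covariate it was 2.23 and was the single member called (adjusted p = 0.0292). It was not called with the osteoclast score or with a block on replicate number.

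*Sfrp2* (chromosome 3, 83766321 to 83774316) ranged from 10.02 through 45.1 to 509 CPM in Control and from 10.8 through 35.8 to 74.6 CPM in LOXL2_KO. Control replicates 1, 2 and 7 held 215, 509 and 263 CPM, the same libraries in which *Rspo4* and *Rspo1* were highest, and the other 5 Control libraries held 10.02 to 67.4 CPM, below the highest library labelled knockout. On the log2 scale the difference was -1.97 (SE 0.59, 95% interval -3.18 to -0.75, adjusted p = 0.0203), and without Control replicate 2 it was -1.27 and not called (adjusted p = 0.0935). Nor was it called with either bone score, or in the 16 libraries with shared replicate numbers, with or without a block on that number. An exon of *Gm26771* lies across 347 bases of *Sfrp2* exons on the opposite strand, and since the strand setting of the counting was not stated, reads of the pair cannot be told apart there.

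The other abundant antagonists had higher means in LOXL2_KO without passing the edgeR test as reported. *Dkk3*, a divergent member of the Dickkopf family, ranged from 17.5 through 90.1 to 114 CPM and from 79.6 through 124 to 186 CPM, with a log2 fold change of 0.66 (SE 0.25, adjusted p = 0.0579), and 7 of 12 libraries labelled knockout were above every Control library. It was called by the Wald test of DESeq2 (adjusted p = 0.0332) and in 4 of 20 edgeR fits that left out 1 library (Control replicates 1, 2 or 5, LOXL2_KO replicate 5). *Sfrp4*, mutated in a human disease of cortical bone, had a log2 fold change of 0.81 (SE 0.34, adjusted p = 0.0844). It was called by the Wald test of DESeq2 (adjusted p = 0.0460). It was also called by edgeR without LOXL2_KO replicates 4, 5 and 7 (0.995, adjusted p = 0.0453), a choice made after the values were seen. Those libraries held 47.5 to 78.9 CPM of *Sfrp4*, against a median of 88.8 CPM in the other 9 LOXL2_KO libraries. Leaving them out therefore enlarges the difference by construction. *Wif1*, a secreted factor that binds Wnt ligands, ranged from 6.08 through 143 to 184 CPM and from 12.2 through 153 to 306 CPM. It was lowest in Control replicates 6 and 8 and in LOXL2_KO replicates 4, 5 and 7, at 6.08 to 8.35 and 12.2 to 41.7 CPM, and its log2 fold change was 0.39 (SE 0.54, adjusted p = 0.636). *Dkk1*, an LRP5 and LRP6 blocker, had 3.85 ± 3.02 CPM and 8.26 ± 5.90 CPM, a log2 fold change of 1.09 (SE 0.52, adjusted p = 0.133). *Notum* had a log2 fold change of 0.84 (SE 0.49, adjusted p = 0.222) and *Sfrp5* of -0.85 (SE 0.73, adjusted p = 0.418). *Frzb* and *Dkk2* were not called.

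Per exon length the Control medians were 59.0 RPKM for *Wif1*, 26.8 for *Dkk3*, 20.9 for *Sfrp2* and 14.3 for *Sfrp4*. The Control mean of *Sfrp2*, 65.1 RPKM, was 40.6 RPKM without Control replicate 2, against 45.0 and 42.5 RPKM for *Wif1*. In LOXL2_KO the medians were 63.1 RPKM for *Wif1*, 36.9 for *Dkk3*, 20.8 for *Sfrp4* and 16.6 for *Sfrp2*. Library by library, *Sfrp2* was the highest antagonist in 4 of 8 Control and 0 of 12 LOXL2_KO libraries, *Wif1* in 3 and 9, and *Sfrp1* in 0 and 2. The summed antagonist level, which counts the divergent *Dkk3*, had a median of 143 RPKM in Control and 163 RPKM in LOXL2_KO. Its range was 24.0 to 371 and 90.6 to 274 RPKM. The log2 ratio of *Sfrp1* to *Sfrp2* had a median of -3.09 (-6.79 to 0.43) in Control and -1.41 (-2.98 to 0.98) in LOXL2_KO. It sets the antagonist called higher over the one called lower, so its difference follows from that choice, and it was not tested.

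**Figure D5:**
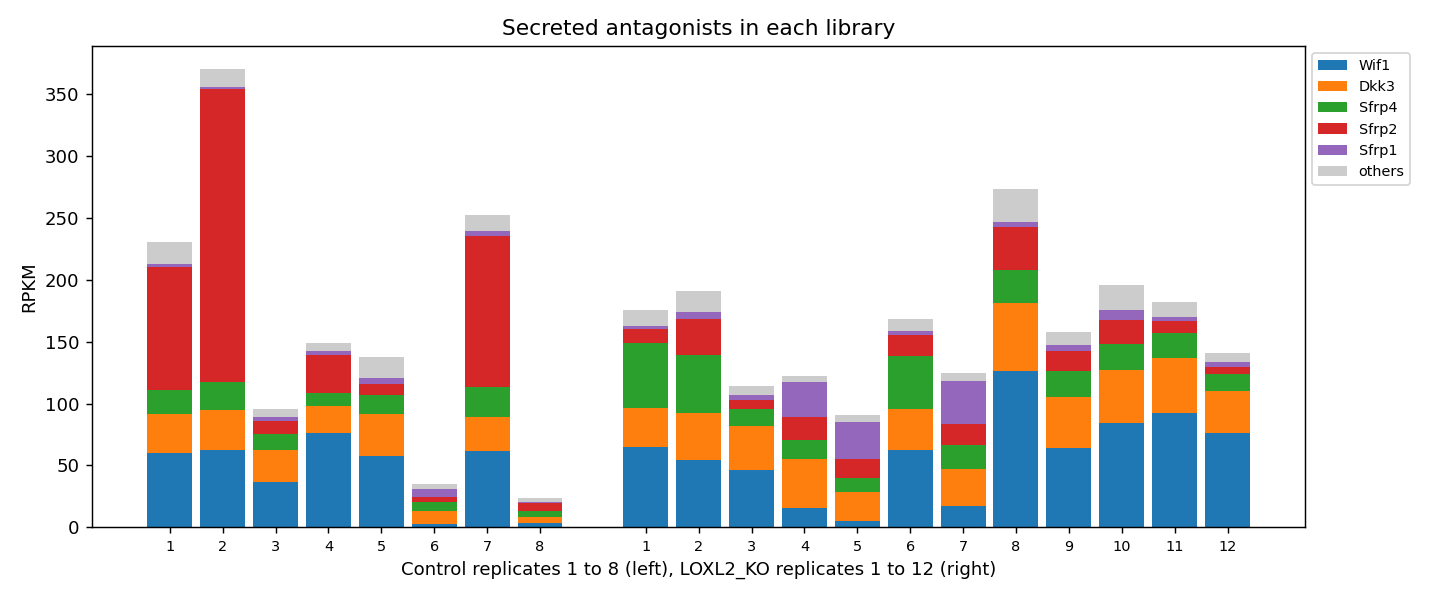
RPKM of the secreted antagonists stacked for each library (y axis, RPKM), Control on the left and LOXL2_KO on the right, with the 6 less abundant genes as others. *Sfrp2* is the largest segment in Control replicates 1, 2 and 7, the Control libraries with the highest sums. It is also the largest in Control replicate 8, the library with the lowest sum. *Sfrp1* is visible mainly in LOXL2_KO replicates 4, 5 and 7.

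In the nuclear arm *Tcf7* was called and *Ctnnb1*, *Lef1* and *Axin2* were not. *Tcf7*, which encodes the factor TCF1, ranged from 1.45 through 7.33 to 14.1 CPM in Control and from 4.45 through 16.3 to 32.2 CPM in LOXL2_KO (chromosome 11, 52252371 to 52283014). LOXL2_KO replicates 4, 5, 7, 10 and 12 lay within the Control range, and 7 of 12 libraries were above it. On the log2 scale the difference was 1.03 (SE 0.37, adjusted p = 0.0466), which was close to the threshold and was called in 7 of 20 fits that left out 1 library, with values of 0.88 to 1.24. The call was lost without Control replicates 3, 4, 6, 7 or 8 or LOXL2_KO replicates 1, 2, 3, 6, 8, 9, 10 or 11. It was also lost with library totals alone, without the filter and without Control replicates 6 and 8 together. The same held in the 16 libraries with shared replicate numbers, with or without a block on that number. *Ctnnb1*, the gene of β-catenin, ranged from 216 through 267 to 300 CPM and from 206 through 336 to 454 CPM, and 8 of 12 libraries labelled knockout were above every Control library. Its log2 fold change was 0.33 (SE 0.13, adjusted p = 0.0822). *Lef1* was low, at 1.20 and 1.39 CPM. *Axin2*, the feedback inhibitor used as a general readout of β-catenin signaling, had 11.8 ± 2.15 CPM (n = 8) and 11.7 ± 2.10 CPM (n = 12). Its log2 fold change of -0.01 had a 95% interval of -0.26 to 0.24. Exons of *Axin2* and *Ctnnb1* overlap opposite-strand genes over 209 and 759 bases. Those of *Fzd5*, *Lef1*, *Notum*, *Wnt11* and *Wnt5a* do so over 1233, 1208, 918, 364 and 358 bases.

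A further 47 genes of the pathway, listed by role with earlier results known, placed the members in context. Of 44 tested, 13 were called, 10 higher and 3 lower (29.5%, against 23% of all genes). *Wls*, the carrier that brings Wnt ligands to the cell surface, rose from 42.0 ± 9.96 CPM to 59.3 ± 10.3 CPM, a log2 fold change of 0.50 (SE 0.14, adjusted p = 0.0133), and *Porcn*, which attaches their lipid, had a log2 fold change of 0.37 (SE 0.20, adjusted p = 0.190). The ubiquitin ligases that remove frizzled receptors were not called, with 0.15 (SE 0.14) for *Znrf3* and 0.18 (SE 0.72) for *Rnf43*. *Ptk7*, a co-receptor of the planar polarity arm, rose by 0.93 (SE 0.30, adjusted p = 0.0286) and *Celsr2*, a cadherin of the same arm, fell by 0.87 on the log2 scale (SE 0.15, adjusted p = 0.00128), with 11 of 12 libraries labelled knockout below the lowest Control library.

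Intracellular inhibitors of the pathway were called in both directions. *Nkd2* rose by 0.96 (SE 0.23, adjusted p = 0.00597) and *Dact3* by 0.66 (SE 0.18, adjusted p = 0.0145), whereas *Dact2* fell by 0.99 on the log2 scale (SE 0.32, adjusted p = 0.0308) and *Btrc*, a ubiquitin ligase subunit for β-catenin, by 0.27 (SE 0.09, adjusted p = 0.0276). Of the nuclear partners, *Pygo2* rose by 0.45 (SE 0.10, adjusted p = 0.00458). Of the genes known as targets in many cell types, *Myc* rose from 6.87 ± 1.96 CPM to 13.9 ± 4.43 CPM, a log2 fold change of 1.01 (SE 0.20, adjusted p = 0.00217), and 10 of 12 libraries labelled knockout were above every Control library. *Ccn4* rose by 1.09 (SE 0.35, adjusted p = 0.0304), while *Axin2* did not differ detectably. *Kremen1*, *Apcdd1* and *Tcf7l2* were also called higher. In fits that left out 1 library, the call was lost for *Btrc* without Control replicates 1, 3, 4 or 8, for *Dact2* without Control replicates 1, 2 or 7, for *Ccn4* without Control replicates 6, 7 or 8, and for *Ptk7* without Control replicates 3 or 8. *Btrc* and *Dact2* were also not called with library totals alone (-0.13 and -0.90) or without the filter. With the osteoclast score as covariate none of these pathway genes was called, and with the osteoblast and osteocyte score only *Celsr2*. Over the alternative fits the lowest log2 fold change was 0.0063 for *Myc* and 0.0038 for *Ccn4*. Without Control replicates 6 and 8 together, *Btrc*, *Ccn4*, *Dact3*, *Ptk7* and *Wls* were not called. *Sost*, the sclerostin gene of osteocytes, ranged from 0 through 8.47 to 44.1 CPM and from 1.64 through 5.72 to 28.9 CPM, with a log2 fold change of -0.11 (SE 0.63, adjusted p = 0.919).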

How the data were processed

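RNA from 20 TMJ condylar heads (8 Control, 12 LOXL2_KO) was sequenced by the authors and deposited as raw counts per gene from featureCounts on mm10 (GRCm38). The aligner, the annotation and the strand setting are not given in the sources used here. Of 54532 genes, 54495 matched GENCODE M21, which gave symbols, coordinates and union exon lengths.

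Counts were scaled by TMM, genes were kept by filterByExpr, and groups were compared with the two-sided quasi-likelihood test of edgeR 4.0.16 in R 4.3.3 on group alone, with Benjamini-Hochberg adjustment over all genes tested and a threshold of 0.05. Adjusted p-values are from this test unless DESeq2 1.42.0 is named. The script was tested on simulated data. The replicates are mice per the study's methods. Totals set the precision of low genes, and floors cover counting error only.

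The members and the gene lists were chosen with earlier results of these data known. Members given with values were all called ones, the 3 with the highest mean RPKM in each role and the uncalled ones with the 5 largest absolute log2 fold changes, and of other pathway genes the called ones with the 10 smallest p-values and *Sost*, *Wls*, *Porcn*, *Rnf43* and *Znrf3*. Marker scores of 2 cell lists entered as covariates in alternative fits. Other alternatives changed the scaling, the test, the filter, a block on replicate number, the gene length and the libraries included. Promoter windows came from RefSeq on GRCm38.p6. No protein sequence was used here.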

Additional observations from a re-analysis of the deposited data

Results flagged for a closer look

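*Fzd4* in Control replicate 8 was far from the other Control libraries, at 185 CPM against 87.2 to 117 CPM, with a gap of 0.614 of the group's range on the log2 scale where 0.526 is the 95% limit of Dixon's test for 8 samples. It was the single such value among 47 members examined in the Control group, and about 1 in 20 groups would pass by chance. The same library had the highest skeletal muscle sum and the lowest chondrocyte sum, and their part in its *Fzd4* level was not tested. Without it the log2 fold change of *Fzd4* was -0.57 (edgeR adjusted p = 0.00797).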

How the results depend on the processing

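The count of called members was 8 with DESeq2 size factors, 6 with library totals alone, 8 without the filter, 8 with a filter on a mean under 1 CPM and 12 with DESeq2's Wald test, against 8 as reported. The Wald test called 8 members higher, and without the filter 3 were higher and 5 lower. Without the filter *Fzd8* and *Tcf7* were not called, so the 8 there were not all the same members. Over all genes, 1918 were called higher and 1755 lower as reported. They were 1873 and 1829 with DESeq2 size factors, and 2188 and 849 with library totals alone. Without the filter they were 1663 and 1324 of 34192, with the filter on mean CPM 1941 and 1848, and with the Wald test 2189 and 2030. Library totals alone moved the median log2 fold change of all genes to 0.12, the higher share of all calls from 52.2% to 72.0% and that of the other pathway genes from 76.9% to 91.7%. Ranking members by the longest transcript exchanged only *Wnt2b* with *Wnt6* and *Fzd2* with *Fzd6* within their roles.

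With the osteoclast score as covariate the count of all genes called by edgeR was 0 (1251 at an unadjusted p under 0.05), with 0 members (0 higher, 0 lower, 5 at an unadjusted p under 0.05) and 0 other pathway genes. With the osteoblast and osteocyte score the counts were 335 genes, 1 member (1 higher, 0 lower) and 1 other pathway gene. A pair of alternatives was chosen after seeing the data. Without LOXL2_KO replicates 4, 5 and 7, 14 of 44 members tested were called (10 higher). In that fit 1843 genes were called higher and 1683 lower, of 15698 tested, so a larger share of members than of all genes was called there, unlike as reported. Without Control replicates 6 and 8, 1703 genes, 3 members (0 higher) and 6 other pathway genes were called.

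The log2 fold change reversed with the osteoclast score for *Axin2* 0.044, *Ctnnb1* -0.13, *Fzd1* -0.081, *Fzd5* -0.64, *Lef1* -1.67, *Lrp4* -0.22, *Lrp5* -0.083, *Notum* -1.05, *Porcn* -0.42, *Ptk7* -0.051, *Rnf43* -2.71, *Sfrp4* -0.65, *Tcf7* -0.30, *Wif1* -0.25, *Wnt10b* -0.21, *Wnt11* 0.28 and *Wnt4* -0.42. With the osteoblast and osteocyte score it reversed for *Axin2* 0.019, *Dkk1* -0.62, *Fzd5* -0.33, *Lef1* -1.05, *Lrp5* -0.13, *Notum* -0.80, *Porcn* -0.10, *Rnf43* -0.81, *Sfrp4* -0.060, *Tcf7* -0.021, *Wif1* -1.44, *Wnt10b* -0.37, *Wnt11* 0.058, *Wnt5b* -0.014 and *Znrf3* -0.084. Reversals with library totals alone were *Axin2* 0.11, *Lgr4* 0.13 and *Wnt5a* 0.079, without the filter *Axin2* 0.0016 and *Lgr4* 0.0047, without Control replicates 6 and 8 *Lef1* -0.045, *Lrp6* -0.0019, *Rnf43* -0.17 and *Wif1* -0.011, and without LOXL2_KO replicates 4, 5 and 7 *Lgr4* 0.035, *Lgr6* 0.089, *Lrp6* -0.041, *Rspo2* -1.45, *Sost* 0.14 and *Wnt5a* 0.00016. The cause was not tested.

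Leaving out 1 library at a time gave 4 to 12 called members (lowest without Control replicate 8, highest without LOXL2_KO replicate 5), 2 to 9 of them higher, 8 to 16 other pathway genes and 0.50 to 0.78 for *Loxl2* on the log2 scale, which was called only without LOXL2_KO replicate 12 (edgeR adjusted p = 0.0313). The calls over all genes moved too. Without Control replicate 8 they were 1563 higher and 988 lower of 16254 genes tested, with 48 members tested. Without LOXL2_KO replicate 5 they were 2143 higher and 2038 lower of 15912, with 46 members tested. The log2 fold change changed sign in some of these fits for *Axin2* (-0.067 to 0.048), *Lgr4* (-0.048 to 0.069), *Lrp6* (-0.00089 to 0.078), *Rnf43* (-0.35 to 0.79), *Rspo2* (-0.27 to 1.61), *Sost* (-0.34 to 0.60), *Wnt4* (-0.066 to 0.33), *Wnt5a* (-0.13 to 0.023).

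Replicate numbers are shared by the groups but did not pair the libraries, as the correlations of same-numbered libraries ran from -0.36 to 0.17 and 0 of 8 Control libraries correlated best with their own number. With a replicate block over 16 libraries, all genes called came to 1786, and 2 members (1 higher, 1 lower) and 6 other pathway genes were called, against 5 members (3 higher) and 8 other pathway genes in the same libraries without the block, and *Wif1* -0.058 reversed under the block.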
